A study of Homo sapiens with 4 samples.

Results

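To see which claudin transcripts carry N6-methyladenosine (m6A) in adenocarcinoma of the esophagogastric junction (AEG), the m6A peaks of 10 claudin genes were read from meRIP-seq of OE-19 cells. OE-19 is a long-standing cultured line derived from such a tumour. The genes were CLDN1, CLDN2, CLDN3, CLDN4, CLDN7, CLDN9, CLDN12, CLDN15, CLDN18 and CLDN23, out of 20046 protein-coding genes in the annotation. A peak was counted for a gene when its summit lay in the gene body. This gave 8 of the 24607 peaks of replicate 1 and 8 of the 19318 peaks of replicate 2. All cells were untreated OE-19 cells grown in RPMI1640 medium with serum, which the labels describe as UV-fixed and lysed. The series held 2 replicates of the immunoprecipitation (IP) with an m6A antibody and 2 replicates of input RNA. Only peak lists of the IP samples were analysed here, so no test between groups was possible and every value below is a description of 2 libraries from 1 cell line. The study calls the replicates biological, while the labels do not say whether they came from separate cultures.

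Claudins are small membrane proteins that span the membrane several times and polymerise into the strands of the tight junction, where they set which ions and solutes pass between epithelial cells. Some, such as CLDN1, CLDN3 and CLDN4, mainly tighten the barrier, whereas CLDN2 and CLDN15 form pores for cations and water. CLDN18 is the claudin of stomach epithelium. The m6A mark is set on adenosines inside short motifs around GGAC, mostly in long exons and near stop codons, and reader proteins bound to it change the stability or translation of the mRNA.

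The 6 sequences below hold the GGAC nearest to a claudin summit or, for the second CLDN12 peak, another motif close to it. They do not locate the methylated base. The peaks of CLDN2, CLDN3 and CLDN4 were 1206 to 2601 bp wide and held 8, 8 and 14 GGAC. The CLDN9 peak of replicate 1 lay elsewhere in the gene, and no stretch is shown for it or for CLDN23. Each is 29 nt of hg38 in the direction of the transcript, with the motif in capitals.
CLDN2: gtgaaaaacagtGGACagcaccccgaggg
CLDN3: agcccccgcgctGGACtggggcagcttcc
CLDN4: actggctgctggGGACtggggactgggca
CLDN9: tcgggtgcatctGGACtggacaagaggga
CLDN12 in the CDS: agttgaccagctGGACctgcgtgtcctcc
CLDN12 at exon 2: aaagctgttttgGAACTgtcaggtacctc
The CLDN2 site (chrX:106928958-106928986, plus strand), the CLDN3 site (chr7:73769225-73769253, minus strand) and the CLDN4 site (chr7:73831926-73831954, plus strand) lie in the 3′ UTR within 200 nt of the stop codon. The CLDN9 site, from replicate 2 (chr16:3013978-3014006, plus strand) lies at codon 210 of 217, and the first CLDN12 site (chr7:90412907-90412935, plus strand) at codon 82 of 244. The last one (chr7:90405575-90405603, plus strand) lies in exon 2 of CLDN12, which is 5′ UTR, just before the end of that exon. In the CLDN4 and CLDN9 stretches a second ggac follows the marked one within a few bases.

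Of the claudin genes, 6 carried a peak and 4 did not. CLDN2, CLDN3, CLDN4, CLDN9, CLDN12 and CLDN23 had a summit in the gene body in both replicates, while CLDN1, CLDN7, CLDN15 and CLDN18 had none in either. All 16 summits lay in an annotated exon of the gene, so the count was 6 of 10 in each replicate, beside 42.3% of all protein-coding genes in replicate 1 and 34.1% in replicate 2. In both replicates together the share of all protein-coding genes was 33.3%. A shared exonic peak was found in 5 claudin genes and in 33.0% of all protein-coding genes. With a fold enrichment of 5 or more required, 2 of them, CLDN12 and CLDN23, kept a peak in both replicates, beside 19.3% of all protein-coding genes. The claudin genes are few and were listed with results of these data known, so their count is not evidence that claudins are marked more often than other genes. A peak needs both RNA and m6A, and the lists give no RNA level. Whether the 4 genes without a peak were unmethylated or little expressed was not tested.

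Of the 8 peaks in each replicate, 6 of replicate 1 and 7 of replicate 2 overlapped a peak of the other list by at least 1 bp. Among all peaks with a summit in an exon, 60.2% were shared in replicate 1 and 95.0% in replicate 2. The summits of overlapping claudin peaks were 2 nt from each other in CLDN2, 3 nt in CLDN4, 6 nt and 7 nt in CLDN12, 23 nt in CLDN3 and 26 nt in CLDN23. A second CLDN23 peak of replicate 2 overlapped the same wide peak of replicate 1 with its summit 891 nt away. The exceptions to sharing were CLDN9, whose single peaks stood at different places in the replicates, and a weak upstream peak of CLDN12 in replicate 1.

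**Figure D1:**
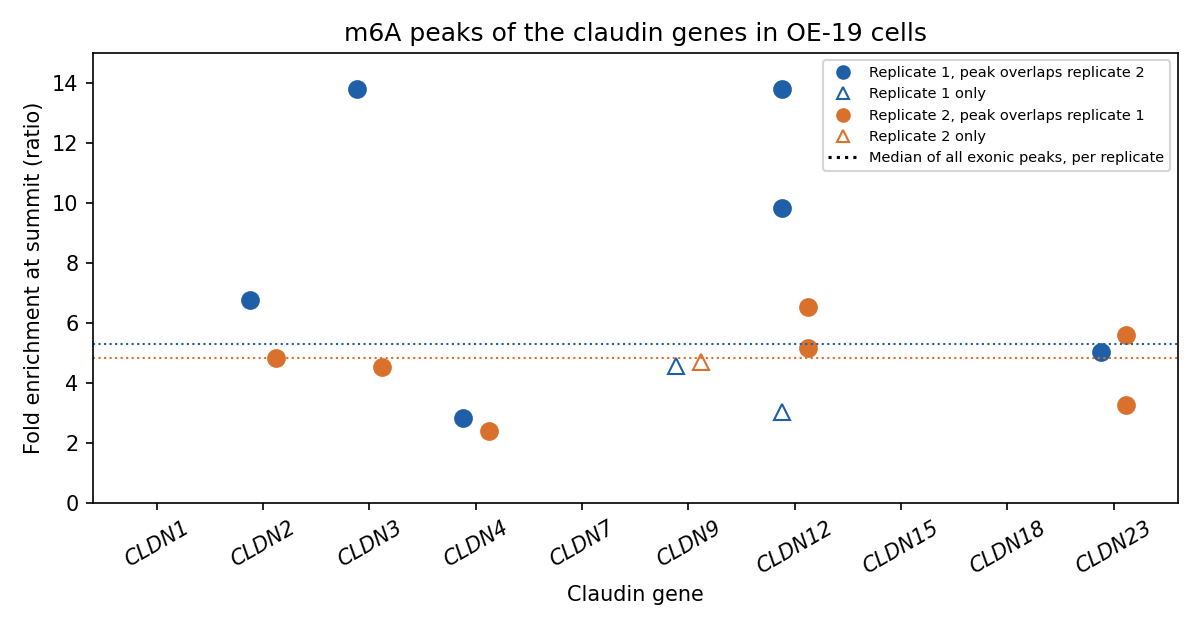
Fold enrichment at the summit (ratio, vertical axis) of every claudin peak, by gene and replicate, with filled circles for peaks that overlap the other list and open triangles for those that do not; dotted lines are the medians of all exonic peaks (5.3 in replicate 1, blue, and 4.82 in replicate 2, orange). CLDN3 and CLDN12 stand highest in replicate 1 at 13.8, CLDN4 lies lowest among the best peaks in both, and the columns of CLDN1, CLDN7, CLDN15 and CLDN18 are empty.

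The barrier claudins CLDN3 and CLDN4 are neighbours on chromosome 7 and both had a single, very wide peak with the summit just past the stop codon. CLDN3 (ENSG00000165215, chr7:73768997-73770270, minus strand) is a gene of 1 exon. Its summit fold enrichment, the ratio of signal to the peak caller's local background, was 13.8 in replicate 1 (q = 2.51e-83) and 4.55 in replicate 2 (q = 1.90e-34). This was the widest gap between replicates of any claudin, a log2 ratio of 1.60 on the fold enrichment scale. Replicate 1 gave the higher value in 79.6% of all pairs of exonic peaks, with a median log2 ratio of 0.43 and quartiles of 0.08 and 0.77. The CLDN3 peak was 1263 bp wide in replicate 1 and 1206 bp in replicate 2, and covered 95.5% and 94.0% of the transcript. Its summits lay 133 and 156 nt past the first base of the stop codon. In both replicates the peak ran past the annotated 5′ end of the gene, by 46 bp and 8 bp.

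CLDN4 (ENSG00000189143, chr7:73799542-73832690, plus strand) had the lowest best fold enrichment of the claudins with a peak, at 2.84 in replicate 1 and 2.39 in replicate 2, a log2 ratio of 0.25. Its place in the list by q was different. The q of 1.87e-32 and 1.02e-29 was far smaller than that of CLDN9, whose fold enrichment was higher. A fold enrichment of 2.84 was lower than the best exonic peak of most other genes, at rank 7972 of 8484 genes with an exonic peak in replicate 1. The CLDN4 peak was 1582 bp and 1586 bp wide and covered 93.3% and 93.6% of the Ensembl canonical transcript of 1695 nt. On the longer transcript used for regions, which has a 5′ UTR of 2680 nt, the shares were 38.0% and 38.1%. The summit lay in exon 2 of 2, at 103 and 100 nt past the stop codon, and 14 GGAC motifs were inside the peak in both replicates.

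The pore-forming claudin CLDN2 (ENSG00000165376, chrX:106900164-106930861, plus strand) had the widest claudin peak. It spanned 2601 bp (chrX:106928122-106930722) in replicate 1 and 2436 bp in replicate 2, wider than 99.4% of exonic peaks in each list. The fold enrichment was 6.76 in replicate 1 (q = 2.81e-65) and 4.85 in replicate 2 (q = 9.97e-55). These values lay near the middle of all exonic peaks, above 67.1% of them in replicate 1 and 50.4% in replicate 2. The peak held all of the coding sequence (CDS) and most of the 3′ UTR, and all 8 GGAC motifs of the transcript were inside it in both replicates. Its summits fell in the last exon, 45 and 47 nt past the stop codon. Both summits lie inside the CLDN2 stretch shown above, with the GGAC adenosine 8 nt from the summit of replicate 1 and 6 nt from that of replicate 2.

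CLDN12, a claudin without the PDZ-binding end of most others, was the only one with a shared summit in the CDS away from the stop codon. It had 3 peaks in replicate 1, the most of any claudin, and 2 in replicate 2, as many as CLDN23. Its peaks outside the CDS may belong to other genes, as given below. CLDN12 (ENSG00000157224, chr7:90383721-90513402, plus strand) had a peak at the start of its last exon (chr7:90412650-90413136 in replicate 1), with a fold enrichment of 9.83 and 5.18. The q was 3.52e-71 in replicate 1 and 2.33e-46 in replicate 2. Its summits lay at codons 59 and 57 of the CDS, in exon 3 of 3, and 208 and 202 nt past the last exon junction. These codons are inside the claudin signature of the first extracellular loop, which spans codons 33 to 67 of CLDN12. No GGAC was within 50 nt of this summit, and the nearest one, shown above, was 69 nt downstream in replicate 1 and 75 nt in replicate 2. None of the other motifs searched was within 50 nt either.

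The CLDN12 peak with the highest fold enrichment was narrow and lay at a splice site. It spanned 165 bp (chr7:90405548-90405712) in replicate 1 and 141 bp in replicate 2, the shortest width among exonic peaks of that list, with a fold enrichment of 13.8 (q = 7.98e-26) and 6.54 (q = 5.18e-13). Exon 2 of the coding transcript is 90 nt of 5′ UTR and ends at position 90405608. The summits lay 16 and 23 nt beyond that end, in sequence that is intron in the coding transcript and exon only in ENST00000495768.1, a transcript with no defined CDS whose exon runs on to position 90406080. Of the peak, 61 bp in replicate 1 and 26 bp in replicate 2 were in the coding transcript's exon. GGAC was absent within 50 nt of the summit, and the GAACT shown above was 35 nt upstream of the summit of replicate 1. The lncRNA ENSG00000273299 overlaps the region on the same strand, so the gene of this peak is uncertain too.

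One more CLDN12 peak was called in replicate 1 alone (chr7:90385019-90385370), with a fold enrichment of 3.02 (q = 0.00671). Its summit lay in exon 2 of 5 of a longer CLDN12 transcript and also in an exon of GTPBP10, a gene for a GTP-binding protein on the same strand. Which of the genes it belongs to cannot be told apart.

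CLDN23 (ENSG00000253958, chr8:8701937-8704096, plus strand), a claudin reported as lowered in gastric and colorectal tumours, is also a gene of 1 exon. In replicate 1 a single peak of 1174 bp reached from the 5′ UTR to past the stop codon, with a fold enrichment of 5.02 (q = 5.22e-08). In replicate 2 the same stretch held 2 peaks. One of 394 bp lay at the stop codon, with a fold enrichment of 5.6 (q = 6.70e-12). The other, of 175 bp, had its summit in the 5′ UTR, with a fold enrichment of 3.27 (q = 0.000741), and reached 42 nt into the CDS. The stop codon summits lay 49 nt and 23 nt before the stop codon, whereas the 5′ UTR summit was 64 nt before the start codon. The pair at the stop codon was the only shared claudin pair with the higher value in replicate 2, at a log2 ratio of -0.16, while the 5′ UTR peak set against the same replicate 1 peak gave 0.62.

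CLDN9 (ENSG00000213937, chr16:3012923-3014505, plus strand), another gene of 1 exon and a barrier claudin of the inner ear, had the weakest evidence. The peak of replicate 1 was 150 bp wide, with a fold enrichment of 4.57 (q = 0.00447) and its summit in the 5′ UTR, 48 nt before the start codon. The peak of replicate 2 was 228 bp wide, with a fold enrichment of 4.69 (q = 0.000613) and its summit 35 nt before the stop codon. The values are alike, but the peaks do not overlap, so CLDN9 had no shared peak.

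**Figure D2:**
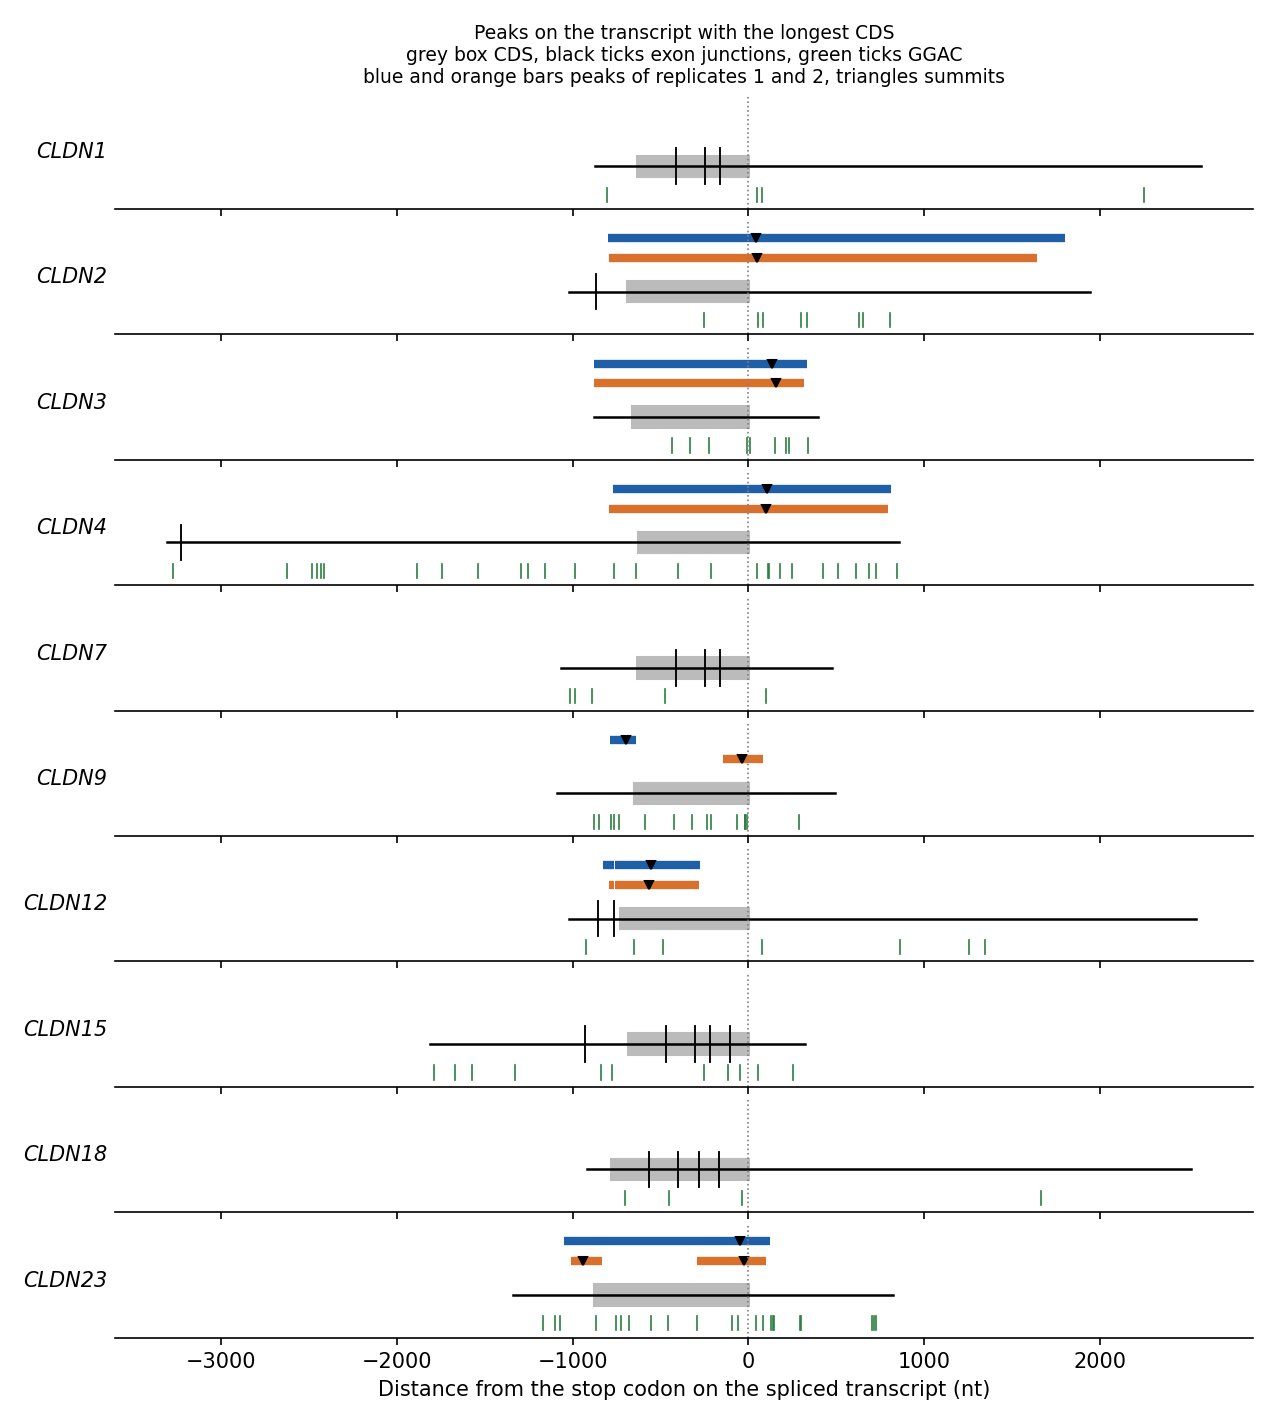
Peaks on the spliced transcript with the longest CDS of each claudin gene, against the distance from the stop codon in nt (horizontal axis); grey boxes are CDS, black ticks exon junctions, green ticks GGAC, bars the peaks of replicate 1 (blue) and replicate 2 (orange) and triangles their summits. The summits of CLDN2, CLDN3 and CLDN4 and 1 CLDN23 summit in each replicate lie near the dotted line of the stop codon, the other CLDN23 summit of replicate 2 lies at -940 nt, that of CLDN12 lies at -557 and -563 nt, and the short bar left of the second CLDN12 junction is the part of the splice site peak that lies in exon 2.

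By position, 4 of the 8 summits in replicate 1 and 5 of 8 in replicate 2 were within 200 nt of the stop codon. The other summits were 1 in the CDS and 1 in the 5′ UTR in each replicate, and 2 in replicate 1 and 1 in replicate 2 were off the transcript with the longest CDS. No claudin summit was in the 3′ UTR beyond the window. Of all summits on such transcripts, 24.5% in replicate 1 and 27.1% in replicate 2 were in the stop codon window, 49.4% and 48.2% in the CDS, 8.83% and 5.69% in the 5′ UTR and 17.3% and 19.0% in the 3′ UTR. These shares leave out summits off such transcripts, whereas the claudin counts out of 8 take them in. The claudin summits are too few, and several share a transcript, to call this placement particular to them.

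Motifs were counted on the transcript strand, up to 50 nt from the summit. A GGAC was there at 5 of 8 summits in each replicate, beside 50.4% of all summits in exons of protein-coding genes in replicate 1 and 52.0% in replicate 2. CLDN2, CLDN3, CLDN4 and CLDN9 had it in both replicates, as did CLDN23 at its stop codon summit, and no CLDN12 summit had it. With a window of 100 nt all 8 summits had it in each replicate, beside 72.7% and 73.7% of all summits. TGGAC, which as UGGAC in RNA is a motif the study names for targets of the m6A reader IGF2BP3, was present at 4 summits in replicate 1 and 3 in replicate 2, against 19.3% and 20.2% of all summits. GGACT was present at 2 and 3 summits (17.9% and 19.1% of all). GAACT was found at 1 summit, the splice site peak of CLDN12, in each replicate (12.3% and 13.4% of all). AGACT was found at 1 summit, that of CLDN4, in each (13.3% and 15.7%), and AAACT at 0 (9.06% and 10.6%). GTCC, the reverse complement of GGAC and so the same motif on the other strand, was present at 2 and 3 summits, against 31.4% and 29.5% of all. GGACT and TGGAC contain GGAC, so these counts overlap.

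The 4 claudins without a peak were not without the motif. CLDN1 (ENSG00000163347, chr3:190305707-190322446), a main barrier claudin of skin and gut, had 4 GGAC in its transcript. CLDN7 (ENSG00000181885, chr17:7259903-7263983), which lies along the lateral membrane of epithelial cells, had 5. CLDN15 (ENSG00000106404, chr7:101232092-101238820) had 11 and CLDN18 (ENSG00000066405, chr3:137998735-138033655) had 4. The median of all protein-coding genes was 11 GGAC per transcript. Each of the 4 claudins had a GGAC within 200 nt of the stop codon. That window held 4 of 8 claudin summits in replicate 1 and 5 of 8 in replicate 2. How many of all transcripts have a GGAC there was not counted. The stretches are given for comparison with those above.
CLDN1: caaaccgaaaatGGACattgagatactat
CLDN7: gggcagggtgccGGACaaaggcctcctgg
CLDN15: cgtcgccacctcGGACcaagaaggcgaca
CLDN18: tgcccgcacagaGGACgaggtacaatctt
These lie 49 nt past the stop codon in CLDN1 (chr3:190308216-190308244, minus strand), 98 nt past it in CLDN7 (chr17:7260264-7260292, minus strand), and before it in CLDN15 (chr7:101232448-101232476, minus strand) and CLDN18 (chr3:138031087-138031115, plus strand), at codons 212 and 249. In density, the claudins without a peak had between 1.16 and 5.16 GGAC per kb of transcript. Those with a peak had between 1.96 and 10.2, so the ranges overlap. CLDN3 (7.06), CLDN4 (6.73), CLDN9 (9.48) and CLDN23 (10.2) lay above every claudin without a peak, while CLDN2 (2.7) and CLDN12 (1.96) did not. The 5.16 is that of CLDN15, on a transcript that is not the Ensembl canonical one and has 6 of its 11 GGAC in the 5′ UTR. The median of all protein-coding genes was 3.83 per kb. CLDN1 (1.16), CLDN7 (3.24) and CLDN18 (1.16) lay below it, as did CLDN2 and CLDN12, which had a peak.

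Where the claudins with and without a peak did separate was the layout of the CDS. In all 6 genes with a peak the CDS lies in 1 exon, with 627 to 876 nt of CDS in that exon. In the 4 genes without a peak it is split over 4 exons (CLDN1 and CLDN7) or 5 (CLDN15 and CLDN18), with at most 223 nt of CDS in any exon. The last exon does not separate them in this way, since it is 2733 nt in CLDN1 and 2686 nt in CLDN18 and neither had a peak. The 14 other claudin genes in the annotation cannot show whether such a split holds, since none had a summit in an exon in either replicate. Of these, 10 have the CDS in 1 exon and 4 in several. Over all protein-coding genes, those with the CDS in 1 exon carried a shared exonic peak less often, at 25.7% of 2201 genes, than those with the CDS in several exons, at 33.9% of 17845 genes. Both shares take in all annotated genes, whether expressed or not. The lists hold no RNA levels, and the part of the CDS layout in the result was not tested.

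**Figure D3:**
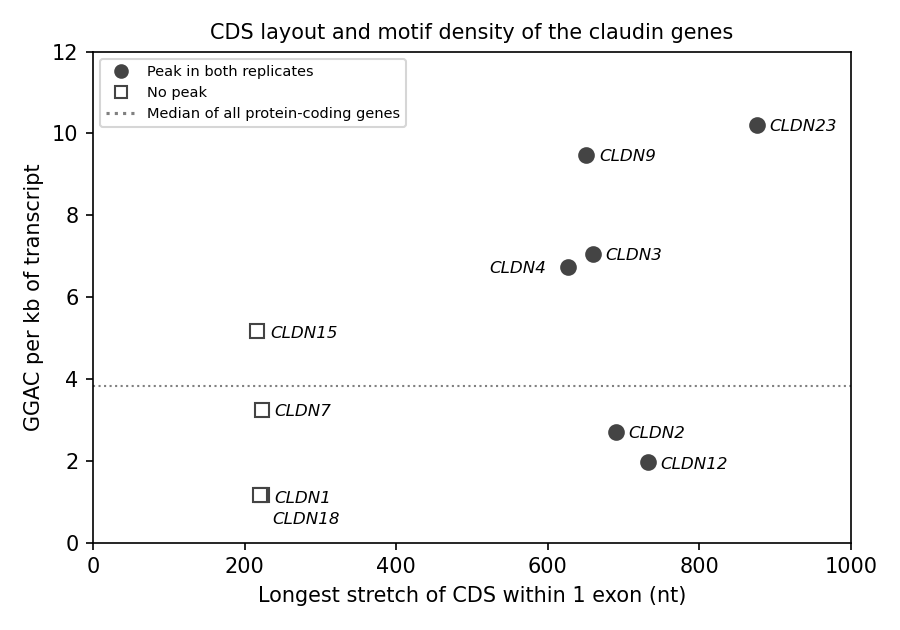
GGAC per kb of transcript (vertical axis) against the longest stretch of CDS within 1 exon in nt (horizontal axis) for the 10 claudin genes, with filled circles for genes with a peak in both replicates and open squares for genes without one; the dotted line is the median of all protein-coding genes, 3.83 per kb. The open squares lie at 217 to 223 nt and the circles at 627 to 876 nt, while on the vertical axis they overlap between 1.96 and 5.16 per kb.

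Claudin genes resemble each other, so the exact sequence that claudin transcripts share was measured. The longest run of identical bases shared with another claudin transcript was 71 nt between CLDN3 and CLDN4, in the CDS and inside the peaks of both, and 74 nt between CLDN9 and CLDN6, in the CDS and outside both CLDN9 peaks. For the other 7 genes it was 13 to 18 nt. The middle of the CLDN3 and CLDN4 run was 542 to 634 nt away from their summits.

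The rest of the tight junction was read from a list of 35 genes for scaffolds, adaptors, polarity proteins and other membrane proteins. A summit lay in an exon of 25 of them in replicate 1 and of 21 in replicate 2, and all 21 also had one in replicate 1, with a shared peak. In their best shared peaks the median fold enrichment was 5.83 in replicate 1 and 4.55 in replicate 2, and 17 of the 21 were higher in replicate 1. The 5 claudins with a shared peak had medians of 6.76 and 4.85, and 4 were higher in replicate 1. The medians of all exonic peaks were 5.3 and 4.82, but these take in every peak and not only the best of each gene. Among the best exonic peaks of all genes, 6.76 ranked 4390 of 8484 in replicate 1. There 4.85 ranked 4294 of 6831 in replicate 2.

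Among the proteins that sit beside claudins in the membrane, OCLN (occludin) had 8.46 and 9.7 as fold enrichment of its best shared peak, MARVELD2 (tricellulin) 9.99 and 4.36, and MARVELD3 12.6 and 8.55, with replicate 1 first. The MARVELD3 summit also lies in an exon of PHLPP2, so its gene is uncertain. TJP1, a scaffold that binds the claudin tail, was lower in both replicates, at 3.87 and 3.5. Its relative TJP3 had a peak in replicate 1 alone, at 5.14. By the geometric mean of both replicates, the highest shared peak of the list was in MAGI3, a membrane-associated scaffold, at 24.4 and 10.9. Other high ones were in MAGI1 (10.3 and 9.49), PARD3 (10.2 and 8.77), PARD6A (9.64 and 5.6) and CRB3 (11.2 and 4.55), the last 3 of which are polarity genes. The best summit of CRB3, like that of TJP3, lay off the gene's transcript with the longest CDS. All 35 genes have the CDS in several exons, unlike the claudins with a peak. Among all protein-coding genes of that layout, 44.0% had an exonic summit in replicate 1, 35.1% in replicate 2 and 34.3% in both. Among those with the CDS in 1 exon, the shares were 28.5%, 26.2% and 25.8%.

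**Figure D4:**
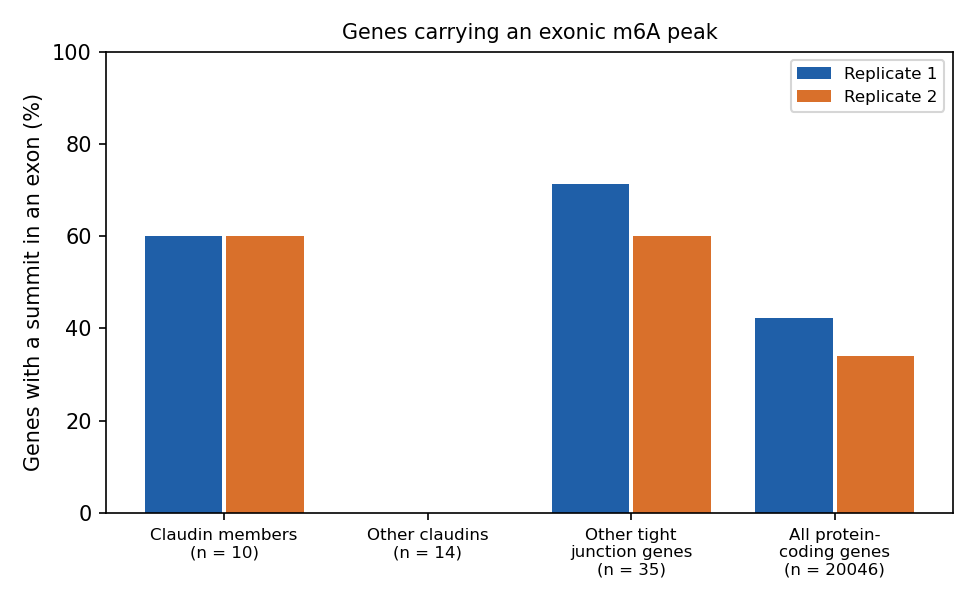
Percentage of genes with a peak summit in an exon (vertical axis) for the 10 claudin genes studied, the 14 other claudin genes, 35 other tight junction genes and all 20046 protein-coding genes, in replicate 1 (blue) and replicate 2 (orange). The claudin genes stand at 60.0% in both, the other tight junction genes at 71.4% and 60.0%, all genes at 42.3% and 34.1%, and the other claudins at 0.

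As a check of the cell type, peaks on marker genes were read. Of 5 epithelial markers, CDH1 had a peak in both replicates, at 4.47 and 3.85, while EPCAM, KRT8, KRT18 and KRT19 had none. Of the fibroblast, endothelial and leukocyte markers, COL1A1 had a peak in replicate 1, at 3.11, and CD68 in both, at 2.64 and 1.75, with a summit that also lies in an exon of ENSG00000264772. COL1A2, VIM, PECAM1, CDH5, CLDN5, PTPRC and CD3E had none. A marker without a peak may still be expressed, so the lists identify the cell type only weakly.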

How the data were processed

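meRIP-seq of OE-19 cells gave 2 m6A IP samples with peak lists, and the 2 input samples entered no result. The submitters' processing notes name fastp, HISAT2, MACS2 and hg38. The study's methods, in a paragraph on both RIP-seq and meRIP-seq, name TopHat2 for the RIP-seq reads and MACS2 for RIP targets. The labels describe UV-fixed, lysed cells, while the methods describe fragmented total RNA. Whether the input served as control is not given in the sources used here. The authors deposited 1 list per sample with a fold enrichment (ratio) for the summit, −log10 p-values, −log10 q-values, a score that was not used, and the summit offset. The highest q was 0.0491 and 0.0497. No read numbers are given, so the depth is unknown, and fold enrichment depends on the local background of the caller.

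Summits were placed on genes of GENCODE version 44. Regions were read on the transcript with the longest CDS (then the longest transcript), and the stop codon window reached 200 nt to either side. Motifs were sought up to 50 nt from the summit along the spliced transcript, or on the genome for summits outside it. An overlap of 1 bp or more made peaks shared. The lists carry no strand. The claudin signature was located in the translated GENCODE CDS, since no RefSeq protein was used here. No test was run: the design gives 1 group with values and 2 libraries. The genes named were the 10 claudins, other claudins with a summit in the gene body, TJP1, TJP3, OCLN, MARVELD2, the 6 other tight junction genes that ranked highest by the geometric mean of both replicates in a shared exonic peak, and genes whose exons hold a claudin summit. Another gene that the rule names is not reported here. The members and lists were chosen with earlier results of these data known. The code for regions and overlaps was tested on simulated data. Alternatives were other q, fold enrichment, overlap, window, motif and gene definitions, another transcript and each replicate left out. Python 3.11.15, numpy 2.4.6, scipy 1.17.1, pysam 0.24.0 and matplotlib 3.10.9 were used.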

Additional observations from a re-analysis of the deposited data

Results flagged for a closer look

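One signal lay outside the exons that the comparisons rest on. CLDN14, a barrier claudin of the kidney and inner ear, had a peak of 197 bp in an intron in replicate 2 alone (chr21:36539424-36539620), with a fold enrichment of 5.16 (q = 7.04e-05). Its summit was 3026 bp from the nearest exon of the gene, it had no GGAC within 50 nt on the gene's strand, and no peak of replicate 1 overlapped it. There was no input list to set it against.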

How the results depend on the processing

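The values above were recomputed under 16 alternatives, which gave 95 counts, shares and medians. Of these, 76 stayed within 1.5 times a count, the interval of a share or the spread between replicates. That number is no measure of robustness. The highest q of a claudin peak was 0.00671, so a limit of 0.01 could not change a claudin value. The interval of a share takes the 8 peaks as independent, which they are not. It is so wide that shared portions of 87.5% and 62.5% in replicate 2 counted as alike. A gene's best fold enrichment is not among the 95, since a filter on q or fold enrichment can only keep or remove it. A fold enrichment of 5 or more changed most: 5 peaks were left in replicate 1 and 3 in replicate 2, 2 claudin genes had a peak in replicate 2 and 2 in both replicates, the median fold enrichment of the peaks went from 5.89 to 9.83 in replicate 1 and from 4.77 to 5.6 in replicate 2, GGAC was at 3 and 1 summits, 1 summit of replicate 2 was near the stop codon, the shared portion of replicate 2 was 100%, and 9 of the other tight junction genes had a peak in both. With q of 1e-05 or less, which leaves no CLDN9 peak, the median was 8.3 in replicate 1, the shared portion was 100% in both replicates, and 0 of the other claudins had a peak. A motif window of 100 nt put GGAC at 8 of 8 summits in each replicate. A stop codon window of 100 nt held 2 summits in replicate 1. Leaving out one replicate gave 6 claudin genes with a peak either way, 0 to 1 other claudin and 21 to 25 other tight junction genes. CLDN14 is the claudin lost without replicate 2. No paired analysis was possible because the input samples had no values here. With no read numbers, a gene without a peak cannot be told from a gene with too few reads.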

Other observations

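Other tight junction genes, named after their values were seen, differed in how their peaks were spread. CGN (cingulin), a junction adaptor, had the most exonic peaks of the list in replicate 1, with 10, against 3 in replicate 2. PRKCZ, the atypical kinase of the polarity complex, had 3 and 2 exonic summits but 9 and 10 summits in the gene body, so most of its peaks were intronic. PRKCI, the related kinase, had none. Of the junctional adhesion genes, F11R had a peak in both replicates, with a fold enrichment of 2.74 and 1.92 and a summit that also lies in an exon of ENSG00000270149, and JAM2, JAM3, CXADR and ESAM had none in either.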
